A study of Mus musculus with 10 samples.

Results

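The contractile apparatus of skeletal muscle fibres was followed through 48 genes in RNA from mouse osteoblasts, the cells that form bone. The 48 genes were chosen by name, as genes of the sarcomere, of calcium release, of muscle energy supply and of muscle gene regulation, and all of them have a probe set on the array. They hold 81 of the 34958 probe sets with 1 gene. A probe set counted as detected where at least 3 of the 10 arrays exceeded the median of the whole table, 7.15 on the log2 scale, and 67 of the 81 did. This left 46 of the 48 genes among 11357 genes tested, each read through the detected probe set with the largest mean signal. The remaining 2, Myh4, a fast myosin heavy chain, and Chrng, the fetal subunit of the acetylcholine receptor, failed this filter.

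The 3 genotypes were measured on Affymetrix arrays of 45101 probe sets, with 4 wild-type samples, 3 samples from mice in which β-catenin is constitutively expressed in osteoblasts (active β-catenin) and 3 from mice in which FoxO1 is deleted in osteoblasts (FoxO1 deleted). β-catenin is the nuclear effector of canonical Wnt signalling, and FoxO1 is a forkhead factor that responds to insulin and oxidative stress. All 10 samples share the labelled background strain C5BL6, an age of 2 to 3 days, the tissue label osteoblasts and a gender label of indeterminante, and each was labelled from 500 ng of total RNA. The design asks how each of these changes in osteoblasts alters gene expression. The sources used here do not name the driver of either change. Nor do the labels state if a sample came from a single animal, from pooled animals or from cultured cells. The p-values below therefore reflect the scatter among these samples alone, and that scatter may be technical.

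Skeletal muscle contracts when myosin of the thick filament pulls on actin of the thin filament. Troponin and tropomyosin on the thin filament open the myosin sites when calcium leaves the sarcoplasmic reticulum. Fast fibres, slow fibres and immature fibres use different genes for many of these proteins, and newborn mouse muscle still makes embryonic and perinatal myosin. Osteoblasts are not known to assemble sarcomeres, and bone of a newborn mouse lies against muscle and tendon.

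Wild type 1 and 2 correlated at 0.990 over the genes tested and wild type 3 and 4 at 0.989, against 0.971 to 0.973 between a member of the first pair and a member of the second. Correlations within the other genotypes ran from 0.953 to 0.979. Whether each close pair shares a source is not given in the labels, so results against wild type are also stated with each pair averaged to 1 unit. Osteoblast markers were high and even. Type I collagen Col1a1 had log2 signals of 15.04 to 15.35, and the mean deviation of the 7 tested osteoblast markers spanned 0.40 over the arrays. The Foxo1 signal was 9.93 to 10.09 in wild type and 9.80, 10.13 and 9.67 in FoxO1 deleted 1, 2 and 3, with a limma adjusted p of 0.706. The sources used here do not say which stretch was deleted, so this probe set does not settle those labels, and the genotype names follow the labels.

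The regulatory DNA of the muscle genes is described first, ahead of their signals. Windows of 250 bases before the transcription start were taken from RefSeq's table for GRCm38.p6, in which 40 of the 48 genes matched, with 49 windows. CAGCTG, the form of the E-box CANNTG that the muscle regulators MyoD and myogenin favour, was present on either strand in 23 of the 49 windows (46.9%), against 13.0% of 32851 windows of all genes. The wider E-box CANNTG, which includes CAGCTG, was in 83.7% of the muscle windows and 66.2% of all. The MEF2 motif, searched as its full consensus on both strands, was in 10.2% of the muscle windows and 2.92% of all. A narrower form, which must begin with C and end with G, was in 4.08% and 0.508%. TATAAA on the gene's strand, whose letters can overlap the consensus of MEF2, was in 14.3% and 7.59%. A match describes letters, not a bound site. The sequences below are 5′ to 3′ on each gene's strand and end at the base before the start.

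Myh3 and Myh1 are shown because their signals took opposite extremes in 1 array, and Mlip because it was the only muscle gene that passed a test between genotypes. Chrna1 and Myoz2 are shown as examples of windows with E-box and MEF2 matches. Capitals mark CAGCTG, the MEF2 motif and TATAAA.
Chrna1 at chr2:73580339-73580588, minus strand: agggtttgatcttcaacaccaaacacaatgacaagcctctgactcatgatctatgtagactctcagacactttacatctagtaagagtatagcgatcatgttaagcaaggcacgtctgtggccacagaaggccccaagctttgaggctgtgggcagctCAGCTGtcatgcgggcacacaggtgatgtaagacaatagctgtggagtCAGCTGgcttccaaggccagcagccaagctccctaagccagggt
Myoz2 at chr3:123034988-123035237, minus strand: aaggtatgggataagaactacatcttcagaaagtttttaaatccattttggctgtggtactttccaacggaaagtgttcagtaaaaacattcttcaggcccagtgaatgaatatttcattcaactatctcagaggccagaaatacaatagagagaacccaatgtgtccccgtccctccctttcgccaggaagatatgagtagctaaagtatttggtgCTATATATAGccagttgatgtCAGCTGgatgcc
Myh3 at chr11:67078050-67078299, plus strand: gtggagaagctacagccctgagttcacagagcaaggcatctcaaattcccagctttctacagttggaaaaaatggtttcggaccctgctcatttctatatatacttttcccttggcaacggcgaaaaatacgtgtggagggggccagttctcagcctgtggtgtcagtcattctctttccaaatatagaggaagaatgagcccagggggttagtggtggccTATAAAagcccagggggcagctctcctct
Myh1 at chr11:67199852-67200101, plus strand: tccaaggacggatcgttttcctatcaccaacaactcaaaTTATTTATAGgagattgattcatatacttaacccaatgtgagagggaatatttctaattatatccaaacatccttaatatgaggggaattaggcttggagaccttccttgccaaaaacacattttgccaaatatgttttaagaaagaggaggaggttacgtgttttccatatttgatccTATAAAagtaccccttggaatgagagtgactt
Mlip at chr9:77347871-77348120, minus strand, the first of 2 windows listed: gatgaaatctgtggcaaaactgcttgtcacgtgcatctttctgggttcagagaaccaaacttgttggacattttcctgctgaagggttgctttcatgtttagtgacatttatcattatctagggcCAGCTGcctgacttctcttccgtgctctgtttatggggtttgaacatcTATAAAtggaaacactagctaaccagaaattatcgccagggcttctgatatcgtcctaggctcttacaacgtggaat

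Chrna1 carries 2 CAGCTG matches, beginning 44 and 92 bases before the start, and Myoz2 has 1 beside its MEF2 match. Myh3 and Myh1 each have TATAAA, at 29 and 32 bases, and no CAGCTG in this window. Myh1 also has 1 MEF2 match. Mlip has both, CAGCTG at 125 bases and TATAAA at 77.

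The main pattern in the muscle genes lay within genotypes. The range of a gene over the arrays of 1 genotype had a median of 1.39 in wild type for the 46 muscle genes, against 0.28 for all genes tested, on the log2 scale. It was 1.22 against 0.32 under active β-catenin and 1.22 against 0.36 with FoxO1 deleted. A range of at least 1, a doubling between arrays of the same label, was found for 38 muscle genes (82.6%) in wild type, 29 (63.0%) under active β-catenin and 31 (67.4%) with FoxO1 deleted. For all genes the shares were 4.83%, 5.58% and 7.30%. Such a range in all 3 genotypes was found for 144 of the 11357 genes, and 23 of them were muscle genes, which is 50% of the 46 and 16% of the 144.

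**Figure D1:**
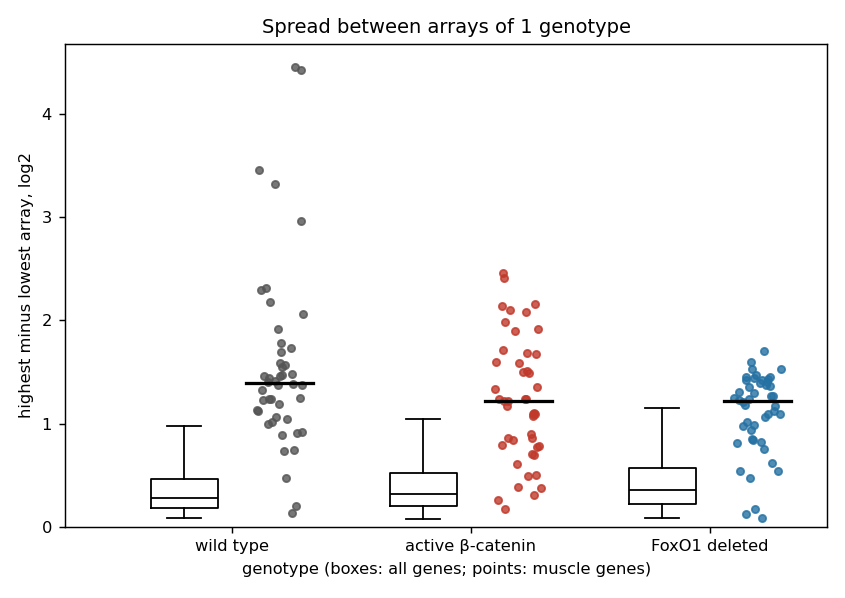
Range of each gene over the arrays of its genotype (highest minus lowest log2 signal; wild type 4 arrays, the other genotypes 3 each). Boxes show all 11357 genes with the quartiles and whiskers from the percentiles that leave out a twentieth of the genes at each end; points are the 46 muscle genes and the bars their medians, 1.39, 1.22 and 1.22, each above the box of all genes.

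The same arrays were high or low for nearly every muscle gene. Wild type 3 and 4 both lay above wild type 1 and 2 for 44 of the 46 genes (95.7%), against 22.8% of all genes tested. The exceptions were Mlip and, in the probe set used, Tpm2. With active β-catenin, array 1 was the lowest for 38 genes (82.6%; 35.8% of all genes) and array 2 the highest for 37 (80.4%; 29.3%). With FoxO1 deleted, array 1 was the highest for 44 (95.7%; 28.6%) and array 2 the lowest for 38 (82.6%; 32.0%).

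A muscle score, the mean over the 46 genes of each gene's deviation from its own mean over the 10 arrays, puts this in 1 value per array. It was -0.98, -0.98, 0.45 and 0.42 in wild type 1 to 4. The score was -0.44, 0.61 and 0.31 in active β-catenin 1 to 3, and 0.78, -0.27 and 0.10 in FoxO1 deleted 1 to 3. Wild type therefore held both the lowest arrays and arrays near the top, and all 3 genotypes overlapped. Group means were -0.27 ± 0.817 (SD, n = 4), 0.16 ± 0.541 (n = 3) and 0.20 ± 0.533 (n = 3). In a bulk sample, fewer muscle cells and less muscle RNA per cell cannot be told apart.

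**Figure D2:**
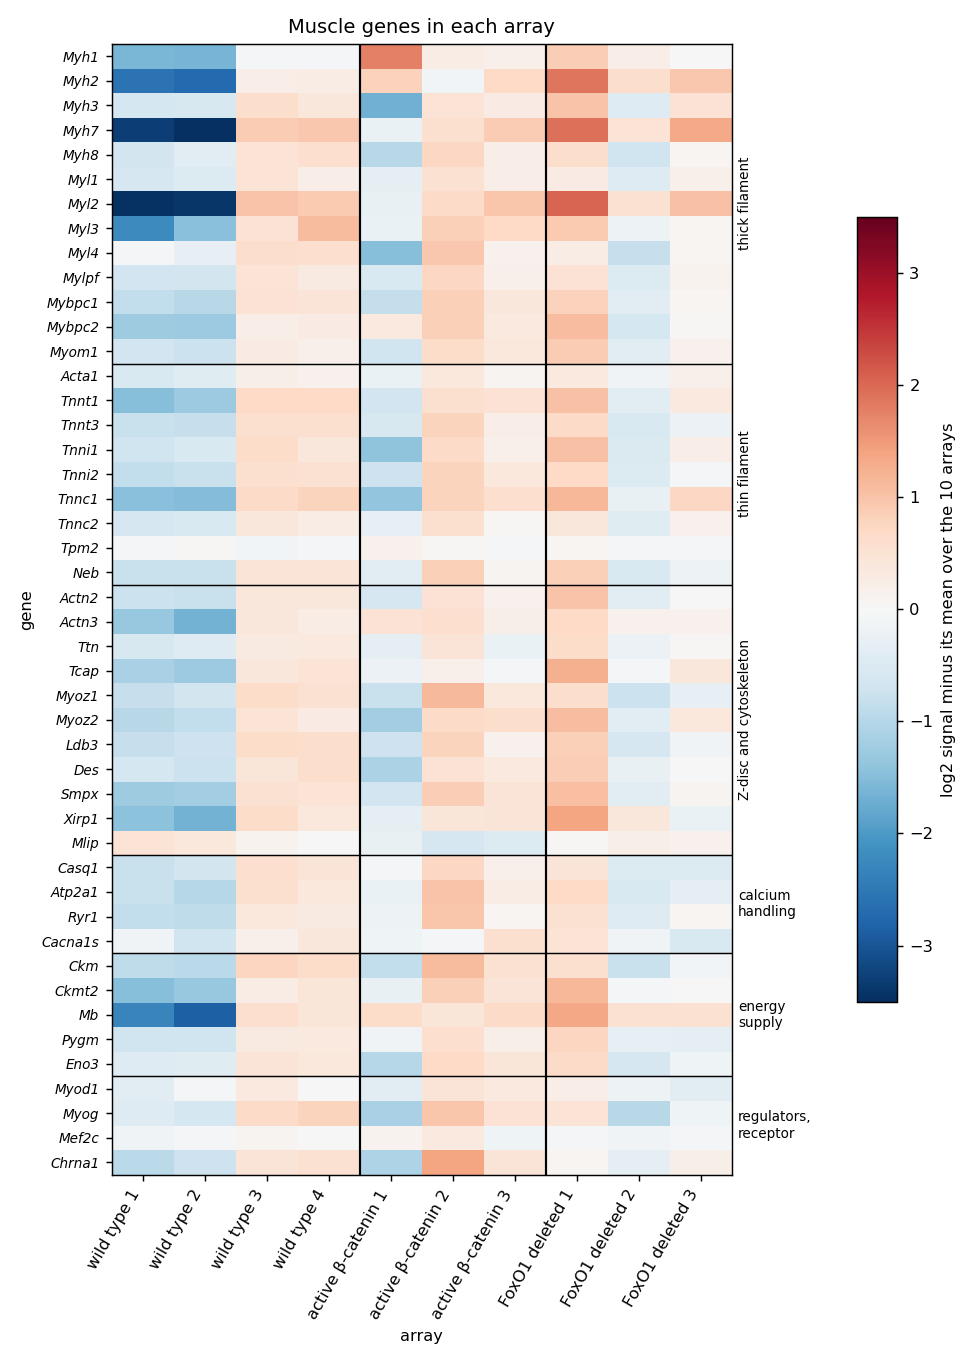
Log2 signal of the 46 tested muscle genes in each of the 10 arrays as the deviation from the gene's mean over the arrays (red higher, blue lower), grouped by role. Columns rather than genotypes stand out: wild type 1 and 2 are low for nearly all genes. Mlip, Mef2c and, in the probe set used, Tpm2 do not follow the rest.

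The thick filament held the widest swings. Myl2, the slow regulatory light chain, had log2 signals of 7.03, 7.09, 11.49 and 11.40 in wild type 1 to 4. Its values were 10.23, 11.15 and 11.45 under active β-catenin and 12.54, 11.01 and 11.52 with FoxO1 deleted. The range of 5.51 was the widest of the 46 genes, and the signal in wild type 1 and 2 was below the table's median of 7.15. Myh7, Myl3 and Xirp1 were also under it in both arrays, so the ranges of these 4 genes and their differences from wild type rest on signals at the detection threshold. Myl1, the fast essential light chain, was strong in every array and moved far less. It lay at 13.94, 14.05, 15.00 and 14.75 in wild type, 14.19, 15.05 and 14.76 under active β-catenin and 14.82, 14.07 and 14.70 with FoxO1 deleted. All 13 tested thick filament genes were higher in wild type 3 and 4 than in wild type 1 and 2.

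The myosin heavy chain genes, the motors of the thick filament, did not share a single order of the arrays. Myh7, the slow and cardiac β chain, read 7.0, 6.79, 11.16 and 11.22 in wild type. Its signals were 10.06, 10.85 and 11.16 under active β-catenin and 12.22, 10.78 and 11.61 with FoxO1 deleted, so FoxO1 deleted 1 was the highest array and wild type 1 and 2 stood far below the rest. Myh2, the fast IIa chain, was 9.07, 8.94, 11.89 and 11.90 in wild type, 12.46, 11.56 and 12.35 under active β-catenin, and 13.51, 12.26 and 12.60 with FoxO1 deleted. The FoxO1 deleted arrays did not overlap wild type for Myh2.

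Myh1, the fast IIx chain, gave another order. It read 10.28, 10.26, 11.85 and 11.82 in wild type, 13.65, 12.15 and 12.06 under active β-catenin, and 12.73, 12.12 and 11.89 with FoxO1 deleted. Active β-catenin 1, low for most muscle genes, was the highest of the 10 arrays for Myh1, and a second kept probe set gave 13.50 there. In the probe set used, neither mutant genotype overlapped wild type for Myh1, but in the second one FoxO1 deleted 3, at 11.42, lay below wild type 3 and 4, at 11.67 and 11.66. Myh4, the fast IIb chain, stayed under the median in all arrays but active β-catenin 1, where 1 of its probe sets read 7.93.

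Embryonic Myh3 and perinatal Myh8 ran the opposite way in that array. Myh3 was 11.85, 11.90, 13.08 and 12.86 in wild type, 10.80, 12.94 and 12.77 under active β-catenin and 13.47, 12.02 and 12.98 with FoxO1 deleted. Myh8 was 12.82, 13.11, 13.96 and 14.06 in wild type, 12.51, 14.19 and 13.69 under active β-catenin and 14.09, 12.78 and 13.53 with FoxO1 deleted. Both had their lowest signal of the 10 in active β-catenin 1, as did Myl4, the embryonic and atrial light chain. In RefSeq's order the genes Myh3, Myh2, Myh1, Myh4 and Myh8 follow each other on chromosome 11 with no other protein-coding gene between them. Genes of this cluster, though not adjacent ones, thus had opposite extremes in 1 array: Myh1 highest, and Myh3 and Myh8 lowest.

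**Figure D3:**
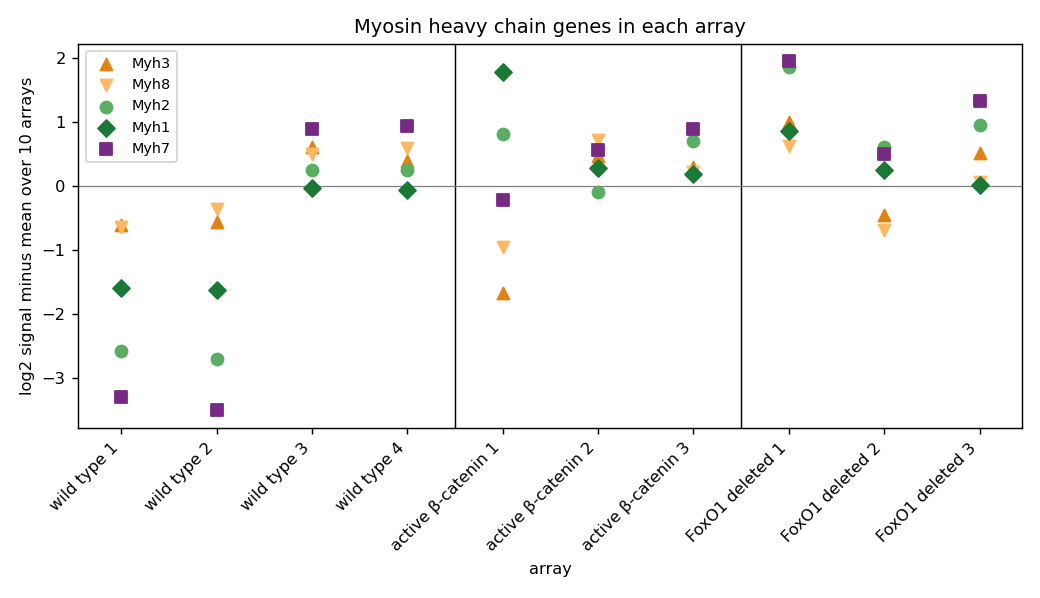
Deviation of 5 myosin heavy chain genes (Myh3 and Myh8 developmental, Myh2 and Myh1 fast, Myh7 slow) from their own means over the 10 arrays, in log2 units, 1 point per gene and array. Active β-catenin 1 has Myh1 at the top and Myh3 at the bottom, while wild type 1 and 2 have Myh7 lowest.

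On the thin filament, skeletal α-actin Acta1 moved least among the genes that followed the pattern. It was 14.26, 14.36, 15.00 and 14.95 in wild type, 14.55, 15.16 and 14.89 under active β-catenin, and 15.14, 14.67 and 14.96 with FoxO1 deleted. Slow and cardiac troponin C, Tnnc1, had the widest range of the thin filament genes, 2.69. It was 9.04, 8.97, 11.16 and 11.28 in wild type, 9.11, 11.27 and 11.09 under active β-catenin and 11.66, 10.24 and 11.22 with FoxO1 deleted. Fast Tnnc2 was also higher in wild type 3 and 4 than in 1 and 2, over a smaller span, with 13.36, 13.41, 14.36 and 14.22. It read 13.65, 14.51 and 13.99 under active β-catenin and 14.34, 13.53 and 14.09 with FoxO1 deleted.

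The other troponin pairs showed the same contrast between slow and fast forms. Slow Tnnt1, which binds tropomyosin, was 8.94, 9.17, 11.12 and 11.12 in wild type, 9.76, 10.98 and 10.94 under active β-catenin and 11.46, 10.07 and 10.78 with FoxO1 deleted. Fast Tnnt3 was 11.98, 11.95, 13.32 and 13.31, then 12.20, 13.54 and 12.97, then 13.42, 12.21 and 12.55 in the same order of genotypes. The range over the arrays was 2.52 for Tnnt1 and 1.59 for Tnnt3.

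Among the inhibitory subunits, slow Tnni1 was 9.24, 9.41, 10.57 and 10.35 in wild type, 8.52, 10.60 and 10.12 under active β-catenin and 10.96, 9.43 and 10.17 with FoxO1 deleted. Fast Tnni2 was 12.40, 12.47, 13.81 and 13.77 in wild type, 12.53, 14.02 and 13.63 under active β-catenin and 13.94, 12.76 and 13.19 with FoxO1 deleted. Their ranges were 2.44 and 1.62, so in each of the 3 pairs the slow form had the wider range. In each pair the slow form also had the lower signal in all 10 arrays. Whether the wider range goes with fibre type or with signal level was not tested. Tpm2, β-tropomyosin, is also made outside muscle, and its probe sets disagreed. The one used lay flat at 12.91 to 13.14. The other kept probe sets were all higher in wild type 3 and 4 than in 1 and 2. The strongest of these ran from 11.96 in wild type 1 to 13.25 in active β-catenin 2 and followed the muscle arrays.

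Of the 11 Z-disc and cytoskeletal genes, 10, all but Mlip, were higher in wild type 3 and 4 than in 1 and 2 and highest of their genotype in FoxO1 deleted 1. Titin, Ttn, the molecular spring that spans the sarcomere, was 13.19, 13.32, 14.08 and 14.11 in wild type, 13.43, 14.22 and 13.52 under active β-catenin and 14.40, 13.55 and 13.80 with FoxO1 deleted. Xirp1, an actin-binding protein of muscle attachment sites, had the widest range of these genes, 3.03. It read 6.27, 6.05, 8.34 and 8.09 in wild type, 7.37, 8.13 and 8.15 under active β-catenin and 9.08, 8.11 and 7.48 with FoxO1 deleted. Myoz2, a calcineurin-binding Z-disc protein of slow fibres, was lowest in active β-catenin 1, at 9.55, against 9.81 to 11.86 elsewhere. Ttn and Xirp1 were both lowest in a wild-type array and highest in FoxO1 deleted 1. Actn3, the fast-fibre α-actinin that anchors actin at the Z-disc, was 7.96, 7.63, 9.69 and 9.55 in wild type, 9.78, 9.87 and 9.49 under active β-catenin and 9.98, 9.44 and 9.44 with FoxO1 deleted, so active β-catenin 1 was not low for it. Tcap, the titin cap, was 8.67, 8.55, 10.20 and 10.28, then 9.61, 10 and 9.78, then 11.06, 9.76 and 10.20 in the same order.

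Mlip, a lamin-interacting protein of muscle, went against the rest. Its log2 signal was 11.42, 11.32, 11.07 and 10.95 in wild type 1 to 4, so the arrays lowest for the other muscle genes were the highest here. With active β-catenin it was 10.68, 10.37 and 10.48, and with FoxO1 deleted 10.98, 11.15 and 11.10. All 3 active β-catenin arrays lay below all other arrays. A second Mlip probe set had a mean signal of 4.87 and was not kept, so the result rests on 1 probe set.

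Calcium handling genes moved together over a smaller span. Atp2a1, the calcium pump of fast fibres that refills the sarcoplasmic reticulum, was 10.33, 10.11, 11.68 and 11.48 in wild type, 10.88, 12.12 and 11.37 under active β-catenin and 11.83, 10.60 and 10.77 with FoxO1 deleted. Casq1, which stores calcium in the reticulum of fast fibres, was 10.13, 10.29, 11.51 and 11.36 in wild type, 10.88, 11.65 and 11.11 under active β-catenin and 11.37, 10.45 and 10.43 with FoxO1 deleted. The release channel Ryr1 spanned 9.18 to 11.04 and its voltage sensor Cacna1s 7.23 to 8.50. All 4 genes were higher in wild type 3 and 4 than in 1 and 2, and for both Atp2a1 and Casq1 active β-catenin 2 was the highest of the 10 arrays.

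Among energy genes, myoglobin Mb, the oxygen store of oxidative fibres, had the widest range, 4.20. It was 7.73, 7.17, 10.63 and 10.45 in wild type, 10.66, 10.45 and 10.71 under active β-catenin and 11.37, 10.55 and 10.56 with FoxO1 deleted. Muscle creatine kinase, Ckm, was 11.53, 11.46, 13.15 and 13.06 in wild type, 11.55, 13.53 and 12.94 under active β-catenin and 12.97, 11.62 and 12.31 with FoxO1 deleted. In active β-catenin 1 the 2 genes parted, with Mb level with the other arrays of its genotype and Ckm near the lowest wild-type arrays. Eno3, muscle enolase, Pygm, muscle glycogen phosphorylase, and Ckmt2, the mitochondrial creatine kinase, had ranges of 1.71, 1.45 and 2.65.

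The regulators were read at lower or flatter signals. Myod1, which commits cells to muscle, was 6.96, 7.28, 7.69 and 7.34 in wild type, 6.96, 7.80 and 7.68 under active β-catenin and 7.58, 7.17 and 6.96 with FoxO1 deleted, close to the median signal throughout. Myog, myogenin, which drives fusion and differentiation, was 8.22, 8.06, 9.34 and 9.46 in wild type, 7.55, 9.65 and 9.18 under active β-catenin and 9.15, 7.70 and 8.53 with FoxO1 deleted. Mef2c, a partner of both that is also made in bone cells, was flat, from 12.82 to 13.31, and its 5 kept probe sets had ranges of 0.41 to 0.73.

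Chrna1, the α-subunit of the muscle acetylcholine receptor, was 7.39, 7.60, 8.77 and 8.85 in wild type, 7.26, 9.72 and 8.78 under active β-catenin and 8.40, 7.99 and 8.53 with FoxO1 deleted. Chrng was not kept. Its most variable probe set read 3.02, 3.08, 7.11 and 6.42 in wild type, 2.29, 7.47 and 5.05 under active β-catenin and 5.41, 3.26 and 2.61 with FoxO1 deleted. All but 1 of these Chrng values lie under the median signal, and its other probe sets stayed under it in every array, so no order of the arrays was read from them.

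Scores by fibre type ordered the arrays differently from each other. The slow score, over 8 genes, was -1.81, -1.69, 0.66 and 0.69 in wild type, -0.78, 0.69 and 0.60 under active β-catenin and 1.25, -0.13 and 0.52 with FoxO1 deleted. It spanned 3.06, or 2.87 with signals under the median of 7.15 set to it, against 1.79 for the fast score over 12 genes and 2.08 for the developmental score over 3. The fast score was -1.05, -1.06, 0.43 and 0.33 in wild type, -0.01, 0.65 and 0.27 under active β-catenin and 0.73, -0.31 and 0.02 with FoxO1 deleted. The developmental score was -0.44, -0.40, 0.57 and 0.52, then -1.37, 0.71 and 0.22, then 0.62, -0.65 and 0.21.

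The slow score of wild type 1 and 2 rests largely on Myh7, Myl2 and Myl3, which lie under the table's median there. Over the other 5 slow genes it was -1.10 and -1.03 in those arrays, level with the fast score, and spanned 2.13. Fast minus slow was 0.76 and 0.63 in wild type 1 and 2 over all slow genes and 0.05 and -0.03 over those 5. In active β-catenin 1 it was 0.78 over all slow genes and 1.11 over the 5. The fast score thus stood above the slow score there under both. Only 4 of the 12 fast genes lay above their own means in that array, with Myh1 highest at 1.77. Of the 8 slow genes, 0 did. The slow genes left out, Myh7, Myl2 and Myl3, lay at -0.22, -0.26 and -0.23 there, so leaving them out raised the difference. Fast minus developmental was -0.61 and -0.66 in wild type 1 and 2 but 1.36 in active β-catenin 1, the highest of the 10 arrays. In the other arrays it was between -0.20 and 0.34. The developmental score is the mean of only 3 genes, and no test was made on the scores.

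**Figure D4:**
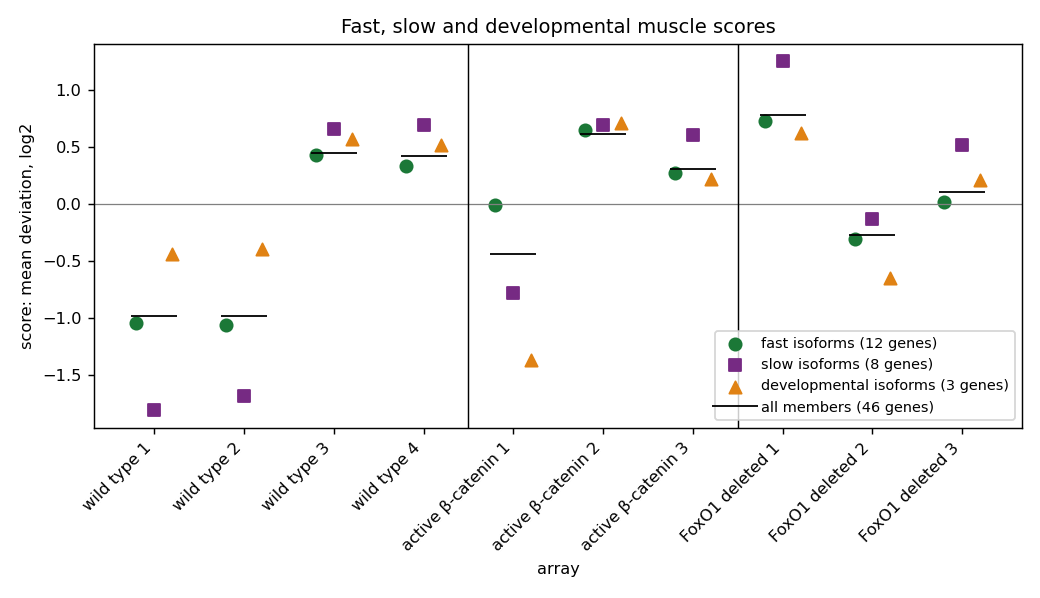
Mean deviation in log2 units of the fast (12 genes), slow (8) and developmental (3) muscle genes in each array; the horizontal bar is the mean over all 46. In wild type 1 and 2 the slow score is lowest, at -1.81 and -1.69 (-1.10 and -1.03 without Myh7, Myl2 and Myl3), while in active β-catenin 1 the developmental score is lowest, at -1.37.

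Between active β-catenin and wild type, 1 of the 46 muscle genes passed at a Benjamini-Hochberg adjusted p under 0.05 in limma, against 0.784% of all genes tested. It was Mlip, lower under active β-catenin, a direction in which 0.185% of all genes passed. Its log2 signal was 10.51 ± 0.157 (SD, n = 3) against 11.19 ± 0.217 (n = 4) in wild type, a difference of -0.68 ± 0.121 (SE), or 0.624 of wild type, with a limma adjusted p of 0.0276. That call was lost without wild type 1, 2 or 3 or active β-catenin 2 or 3, with limma adjusted p up to 0.0988, and with the wild-type pairs averaged the difference was again -0.68 with an adjusted p of 0.212.

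The other muscle genes leaned higher under active β-catenin, within the spread of the arrays. Of the 46, 40 had a positive difference (51.3% of all genes), with a median of 0.32 against 0.01 over all genes. This median went to 0.00 without active β-catenin 2, to 0.09 without wild type 1 and to 0.63 without active β-catenin 1, so single arrays set its size. All 12 fast genes had positive differences, from 0.21 to 1.67, with a median of 0.35. So did 7 of the 8 slow genes, with a median of 0.43, and 21 of the 23 genes without an isoform class. The 3 developmental genes had differences of -0.25, -0.02 and -0.35 for Myh3, Myh8 and Myl4. Whether the classes differ in response was not tested.

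In limma, 4 muscle genes reached an unadjusted p under 0.05, against 12.1% of all genes, with 3 of them higher (6.30% of all genes) and 1 lower (5.79%). Beside Mlip these were Myh1, at 1.57 ± 0.484 or 2.96-fold with an adjusted p of 0.183, Myh2 at 1.67 ± 0.714 with an adjusted p of 0.375, and Actn3 at 1.01 ± 0.445 with an adjusted p of 0.396. Mb followed at 1.61 ± 0.734 with an adjusted p of 0.413. Arrays did not overlap for Myh1 and Mybpc2, both higher (7.27% of all genes), and for Mlip, lower (6.76%), 3 of 46 against 14% of all genes. Without active β-catenin 1 the Myh1 difference was 1.05.

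Between FoxO1 deleted and wild type no muscle gene passed in limma, against 0.0264% of all genes tested, and 5 had an unadjusted p under 0.05, against 7.83%. All 5 were higher in the FoxO1 deleted arrays, as were 3.88% of all genes, and 4 of them belong to the thick filament. Myh7 differed by 2.49 ± 1.03 with an adjusted p of 0.630, Myl2 by 2.44 ± 1.06 with 0.635, and Myh2 by 2.34 ± 0.714 with 0.488. Mb differed by 1.83 ± 0.734 with an adjusted p of 0.621 and Myh1 by 1.19 ± 0.484 with 0.627. In the probe sets used, arrays did not overlap for Myh1 and Myh2 (the second Myh1 probe set did overlap), 2 of 46 against 9.03% of all genes in either direction and 4.59% higher.

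Over the 46 genes, 37 differences were positive (50% of all genes), with a median of 0.26 against 0.00 for all genes. The median was -0.01 without FoxO1 deleted 1, 0.08 and 0.09 without wild type 1 or 2, and 0.47 without FoxO1 deleted 2, and with array weights 0.66. All 8 slow genes had positive differences, from 0.29 to 2.49, with a median SE of 0.629, and none passed. In the same comparison the 8 chondrocyte markers had a median difference of 1.15. All 8 had an unadjusted limma p under 0.05, against 7.83% of all genes. Arrays did not overlap for 7 of the 8, against 9.03%, and none passed (lowest adjusted p 0.343). Under active β-catenin against wild type their median was 0.74, with 3 of 8 at such a p, 4 of 8 not overlapping and none passing. The shares of all genes there were 12.1% and 14%. The part of these markers in the muscle differences was not tested. With FoxO1 deleted against wild type the Mlip difference was -0.11 ± 0.121, and the Acta1 difference 0.28 ± 0.206. Both comparisons use the same wild-type arrays, so the positive differences in one are not separate evidence for the other. Averaging the wild-type pairs left the 2 medians at 0.32 and 0.26, with no muscle gene passing in either comparison.

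**Figure D5:**
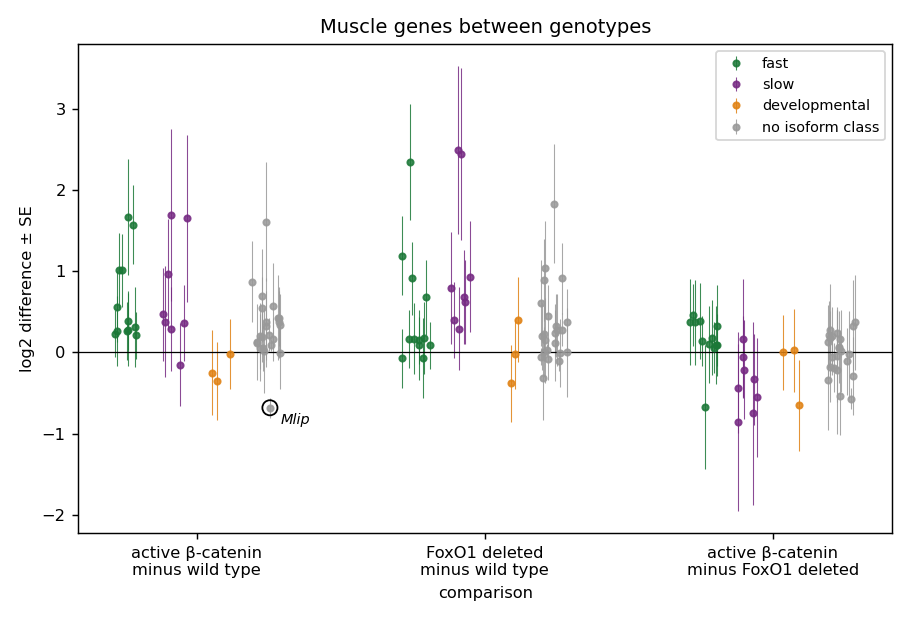
Log2 difference ± SE of each of the 46 muscle genes in the 3 comparisons, coloured by fibre class; the circle marks the 1 gene that passed, Mlip at -0.68. All fast genes and most slow genes lie above 0 under active β-catenin against wild type, and the widest errors belong to the slow genes.

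Active β-catenin and FoxO1 deleted arrays differed little from each other in muscle signal. No muscle gene passed, against 0.669% of all genes tested, and 1 had an unadjusted limma p under 0.05, against 8.03% in either direction and 3.28% lower. This was again Mlip, at -0.57 ± 0.129 with an adjusted p of 0.115, and its arrays did not overlap, 1 of 46 against 9.54% of all genes, of which 4.16% lower. Of the 46 differences 25 were positive (50.3% of all genes), with a median of 0.05, or -0.17 with array weights. The next smallest p-values belonged to Mef2c at 0.16, Casq1 at 0.46, Myh3 at -0.65 and Tcap at -0.54, with limma adjusted p from 0.793 to 0.857. Of the 12 fast genes 11 had a positive difference and of the 8 slow genes 7 a negative one, none of them past the threshold. The Myh3 difference was 0.03 without active β-catenin 1.

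Other muscle genes, from a list of 59 that shares no gene with the 48, followed the same arrays. Of these, 47 were tested, and 45 (95.7%) were higher in wild type 3 and 4 than in 1 and 2, against 22.8% of all genes. None passed in limma in any comparison, with the lowest adjusted p at 0.259, 0.500 and 0.668. An unadjusted limma p under 0.05 was found for 2, 4 and 0 of them, against 12.1%, 7.83% and 8.03% of all genes. A range of at least 1 within every genotype was found for 24 of the 47 (51.1%), which is 16.7% of the 144 genes with that property.

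The 5 of them with the widest range included genes of immature muscle that were lowest in active β-catenin 1. Mymk, the fusion protein myomaker, was 7.08, 5.65, 7.42 and 7.74 in wild type, 3.48, 7.95 and 7.03 under active β-catenin and 7.35, 6.29 and 6.68 with FoxO1 deleted. Actc1, the fetal and cardiac actin, read 9.79 in active β-catenin 1 and 11.39 to 13.63 in the other 9 arrays. Tnnt2, the fetal and cardiac troponin T, read 6.50 there and 8.88 to 10.26 elsewhere. Pvalb, parvalbumin, a calcium buffer of adult fast fibres, was highest there at 10.58, against 6.93 to 9.40 elsewhere. Ankrd2, a stress-response gene of slow fibres, had its highest value, 10.97, in FoxO1 deleted 1. Mymk lay under the table's median of 7.15 in arrays of every genotype, so its range rests largely on signals at or under the detection threshold. Tnnt2 was under that median in active β-catenin 1 alone, which leaves the size of its drop there uncertain. Pvalb and Ankrd2 fell under it only in wild-type arrays, and Actc1 stayed above it in every array.

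Heart muscle was looked for because several slow genes are also cardiac. All 7 probe sets of the 6 heart markers Myh6, Nppa, Nppb, Tnni3, Myl7 and Nkx2-5 stayed at or below 6.77, under the table's median, in all 10 arrays. A probe set shared by Myh7 and Myh6 followed Myh7, from 4.61 in wild type 2 to 10.65 in FoxO1 deleted 1.

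Tendon markers moved with the muscle genes in part. Their score was -0.63, -0.54, 0.22 and 0.10 in wild type, 0.00, 0.48 and 0.28 under active β-catenin, and 0.20, -0.07 and -0.04 with FoxO1 deleted. Tnmd, Kera and Thbs4, 3 of the 5, were higher in wild type 3 and 4 than in 1 and 2. Summed linear signal of the 5 tendon markers ran from 8870 to 15600 in wild type, 12100 to 18400 under active β-catenin and 11200 to 16600 with FoxO1 deleted. For the 46 muscle genes these sums were 137000 to 285000, 172000 to 321000 and 173000 to 328000.

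Chondrocyte markers shared part of the muscle order. The score of 8 chondrocyte markers was highest in FoxO1 deleted 1, at 1.34, and lowest in wild type 1, at -0.87, and all 8 were higher in wild type 3 and 4 than in 1 and 2. Active β-catenin 1 was lowest of its genotype for both scores, at 0.01 for the chondrocyte markers, while FoxO1 deleted 3, at -0.08, was lowest of its genotype for them. Their summed signal was 12200 to 18800 in wild type, 20900 to 28600 under active β-catenin and 20400 to 55000 with FoxO1 deleted. The 2 tested of 7 nerve and Schwann cell markers were highest in active β-catenin 1, where Mbp, myelin basic protein, read 11.73 against 7.98 to 9.81 elsewhere. Their summed signal was 1020 to 1260, 1400 to 5040 and 916 to 1680 in the 3 genotypes. The 6 tested smooth muscle markers summed to 13500 to 15800, 16600 to 17600 and 10600 to 15300.

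Endothelial markers, 6 of 6 tested, summed to 7080 to 8630 in wild type, 8950 to 10200 under active β-catenin and 7820 to 8270 with FoxO1 deleted, and osteoblast markers, 7 of 10, to 133000 to 147000, 144000 to 159000 and 141000 to 170000. Of the 7 osteoblast markers, none was higher in both wild type 3 and 4 than in 1 and 2, and 4 were lower. Xist, the RNA of the inactive X chromosome, read 14.05 to 14.43 in wild type 3 and 4 and FoxO1 deleted 2 and 3, and 5.91 to 8.96 in the other 6 arrays. Xist divided wild type 3 and 4 from 1 and 2, as the muscle score did. Within FoxO1 deleted it was low in array 1, where the muscle score was highest. All 3 active β-catenin arrays were low for Xist, at most 7.06, and did not overlap wild type. The log2 difference was -4.63 ± 1.86 (SE), with a limma adjusted p of 0.339. Wild type 1 and 2, at 8.96 and 7.29, were themselves low for Xist. The Actb 3′ minus 5′ signal, a reading of RNA integrity, was 0.60 to 0.77 in wild type, 0.85 to 0.88 under active β-catenin and 0.80 to 0.99 with FoxO1 deleted. The part of these cell types, of Xist and of RNA integrity in the muscle results was not tested.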

How the data were processed

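The deposited table holds log2 signal for 45101 probe sets in 10 arrays, made with MAS5 per the submitters' processing notes (no version stated). The deposited log2 values run from -3.86 to 15.86, and each array has a trimmed mean near 500 on the linear scale. The sources used here name no further step between arrays. The array has no stated genome build, and RefSeq's GRCm38.p6 tables served for names, gene order and promoter windows.

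Gene names came from the annotation of the platform (932 had several genes and 9211 none listed). A single limma 3.58.1 fit (R 4.3.3) took all 10 arrays, with a mean for each genotype, eBayes with a trend and Benjamini-Hochberg adjustment over 11357 genes, two-sided. Tested on simulated data for active β-catenin against wild type, over 11357 genes, the fit found 79.4% of 2-fold and 97.2% of 4-fold changes, with 4.72% false calls. The changed genes were drawn from all genes tested, with a median SE of 0.138 in the real fit, against 0.446 for the muscle genes. The arrays were also simulated as independent. These shares therefore do not apply to the muscle genes, whose changes are harder to find. The genes and lists were chosen with earlier results of these data known. Named genes are those that pass, the 5 smallest p-values per comparison, the strongest and most variable of each role, the myosin heavy chains, troponin pairs and regulators, and the 5 most variable other muscle genes; further genes were named after their values were seen. Alternatives were other filters, scalings, probe set rules, samples in the fit, a replicate block, array weights, 16 added on the linear scale, wild-type pairs averaged, the muscle score as a covariate and leaving out each array.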

Additional observations from a re-analysis of the deposited data

How the results depend on the processing

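The 3 median differences of the muscle genes and the spans of the scores moved by less than 1 SD between arrays under every alternative run. For the medians this limit is loose. The SD of the muscle score within genotypes was 0.674, larger than the medians of 0.32, 0.26 and 0.05. Medians that reached 0.00 or changed sign therefore still met it. Leaving out 1 array moved the median to 0.00 to 0.63 (active β-catenin against wild type), -0.01 to 0.47 (FoxO1 deleted against wild type) and -0.24 to 0.30 (active β-catenin against FoxO1 deleted), the covariate for muscle score gave -0.06, -0.11 and 0.07, array weights 0.47, 0.66 and -0.17 (10 of 46 positive in the last, against 25), and the replicate block 0.50, 0.41 and 0.04. The covariate is the mean deviation of these same 46 genes, Mlip among them, so it takes up most of their shared difference by construction. Settings added after the data were seen floored signals at the median or dropped slow genes under it. The span of fast minus slow was then 1.29 and 1.44. Active β-catenin against wild type had 0 muscle genes with wild-type pairs averaged and 0 to 1 with 1 array left out. Active β-catenin against FoxO1 deleted had 1, Mlip, with arrays centred on their medians (adjusted p 0.0399) and with the covariate (0.00327). The Myh3 difference there was -0.65, and -1.05 to 0.03 with 1 array left out, 0.03 being without active β-catenin replicate 1.

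Genes passing numbered 89 for active β-catenin against wild type, and 141 with only those genotypes fitted, 149 with array weights, 9 with wild-type pairs averaged, 184 with the covariate and 31 to 130 with 1 array left out (31 and 32 without wild type 1 or 2). They numbered 3 for FoxO1 deleted against wild type, and 5 with quantile scaling, 1 with only those genotypes, 29 with weights, 0 with pairs averaged, 5 with the covariate and 0 to 7 with 1 array left out. They numbered 76 for active β-catenin against FoxO1 deleted, and 25 with only those genotypes, 49 with pairs averaged and 29 to 62 with 1 array left out (29 without FoxO1 deleted 1). The cause of these shifts was not tested, beyond fewer samples where arrays are dropped or averaged.

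The labels do not say whether replicate numbers pair the samples. Deviations of same-numbered arrays correlated between -0.29 and 0.29, which does not decide it, since the close wild-type pairs also shape these deviations. With the replicate block, 15, 0 and 22 genes passed in the same order, with 0, 0 and 0 muscle genes, and Mlip had an adjusted p of 0.0698. Signals under the median of 7.15 limit Myh4 and Chrng in nearly all arrays, Myh7, Myl2, Myl3 and Xirp1 in wild type 1 and 2, and Myod1 in 3 arrays. They also limit Mymk in arrays of every genotype, Tnnt2 in active β-catenin 1, and Pvalb and Ankrd2 in wild-type arrays.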

Other observations

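Genes on no list that ranged widely in all 3 genotypes included Ptprcap, a lymphocyte phosphatase-associated protein, and Tpsab1, a mast cell tryptase. Ptprcap read 7.05, 8.22, 7.51 and 4.92 in wild type, 8.50, 4.20 and 4.76 under active β-catenin and 7.34, 8.73 and 4.74 with FoxO1 deleted. Tpsab1 read 5.50, 4.99, 8.50 and 8.34, then 5.29, 8.44 and 5.88, then 2.73, 5.77 and 4.98. Both were picked after their values were seen and lie partly under the median signal. Tpsab1 was higher in wild type 3 and 4 than in 1 and 2 and highest in active β-catenin 2 of its genotype, as most muscle genes were, but lowest in FoxO1 deleted 1, where most muscle genes were highest.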
